A study of Mus musculus with 3 samples.

Results

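The transcripts of ATP-dependent chromatin remodelers were followed through a pull-down of the RNA-binding protein YTHDF2 in mouse embryonic stem cells (ESCs). The set comprised 45 of the 49997 genes in the count table. A gene was included when its symbol began with Smarc (13 genes) or Ino80 (6 genes), consisted of Chd and 1 digit with or without a final l (10 genes), or was 1 of 16 named subunits of the BAF complexes. This rule reads symbols only, not levels. Of the 45 genes, 44 passed the filter on low counts, and Actl6b was the exception.

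The cells were E14 ESCs that had received doxycycline (Dox) for 24 h. As the study describes its cell system, the line carried a Dox-inducible Dux transgene and a tdTomato reporter driven by the MERVL promoter, so that Dox drives cells toward a state resembling the 2-cell embryo. All 3 libraries came from such treated cells: 1 input library and 2 libraries of RNA recovered with an anti-YTHDF2 antibody (IP replicates 1 and 2). Untreated cells were not analysed here, and a pull-down with a control antibody was not part of what was analysed here. The counts summed to 36986994 in the input and to 35259827 and 35888743 in the IP libraries. All 10 markers of ESCs reached at least 1 CPM (counts scaled to a common library total) in the input, from 145 CPM for Dppa4 to 1806 CPM for Dppa5a, as did 8 of 8 markers of the 2-cell-like state. The markers of other lineages summed to between 1.60 CPM (mesoderm) and 93.2 CPM (neural) in the input. All 6 neural markers also reached 1 CPM there. So did 3 of 5 endoderm, 3 of 6 fibroblast feeder, 1 of 3 mesoderm and 1 of 3 trophectoderm markers. The 8 markers of the 2-cell-like state summed to 2025 CPM in the input and to 3284 and 3245 CPM after the IP. The 6 neural markers, mostly Tubb3 (70.2 CPM in the input), summed to 183 and 175 CPM after the IP. The 3 trophectoderm markers were nearly all Eomes, at 24.9 CPM in the input with Elf5 at 0, and summed to 54.1 and 52.1 CPM after the IP. The part of these markers in the results was not tested. The samples were bulk cultures, in which fewer cells with a transcript and less of it per cell cannot be told apart. The labels and the RIP-seq methods do not say whether the 2 IP libraries came from separate cultures, so the p-values below measure only the spread between those 2 libraries, and the spread between inputs was not measured.

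Chromatin remodelers use ATP to slide, evict or exchange nucleosomes. The BAF (mammalian SWI/SNF) complexes are built around the ATPases BRG1 or BRM and open chromatin at enhancers and promoters, and ESCs depend on a form of BAF made from particular paralogs. CHD proteins, ISWI ATPases and the INO80 complex are separate families that space nucleosomes, act in transcription and repair, or exchange histone variants. YTHDF2 is a cytoplasmic reader of N6-methyladenosine (m6A) that brings methylated mRNA to decay enzymes, so a pull-down of YTHDF2 addresses which of these mRNAs it was associated with.

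IP was compared with input by edgeR's quasi-likelihood test with Benjamini-Hochberg adjustment across all 19601 genes tested. A gene is called enriched or depleted at an adjusted p under 0.05 and a fold change over 2, and higher or lower at that p with any fold. Because libraries were scaled to each other, a value says how much of a transcript was recovered relative to the typical transcript, not what share of it was bound.

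Most remodeler mRNAs were recovered less than the typical transcript, and a smaller number were recovered more. Of the 44 tested genes, 3 were enriched (Bcl7a, Bcl7c and Dpf3), beside 15.0% of all tested genes. Depletion was called for 7 genes (Actl6a, Arid1a, Dpf2, Smarca1, Smarca2, Smarca5 and Smarcb1), beside 13.0% of all. At any fold change, 9 remodeler genes were higher in the IP (20.5% of the 44, with 28.4% over all genes) and 25 were lower (56.8%, with 28.9% over all genes). These genes are deeply covered, and 42 of them had a mean of at least 100 counts, with 9 higher and 24 lower. Over all 12620 genes of that depth, 37.4% were higher and 39.0% were lower. The median log2 fold change of the 44 was −0.34, and that of all tested genes was 0.0063 with quartiles of −0.72 and 0.81. In IP replicates 1 and 2 taken alone the median of the remodeler genes was −0.34 and −0.29.

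**Figure D1:**
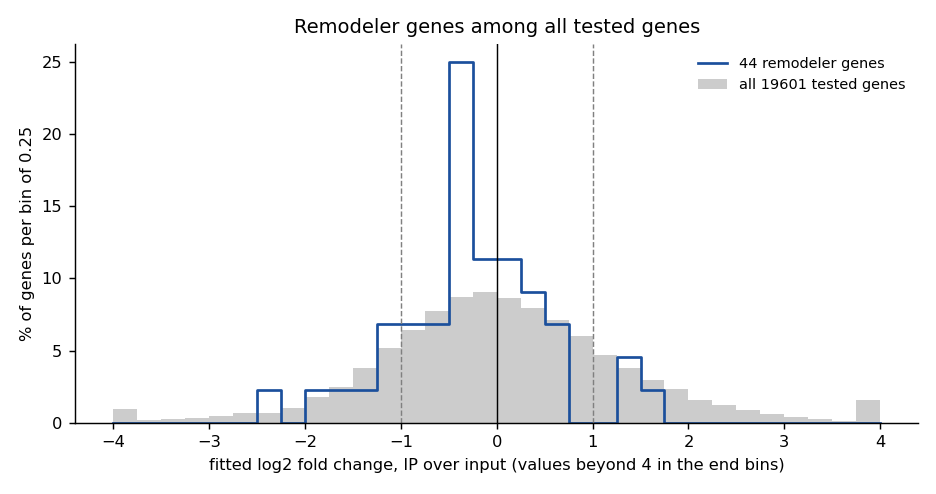
Fitted log2 fold change of IP over input for all 19601 tested genes (grey bars, % of genes per bin of 0.25) and for the 44 remodeler genes (blue line), with dashed lines at the 2-fold limits. The bin from −0.50 to −0.25 holds 11 remodeler genes (25% of them) and 8.75% of all genes.

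The IP libraries gave the same direction for 42 of the 44 genes, with Arid2 and Ino80b as the exceptions. The log2 ratio of one IP library to the other had an SD of 0.231 across the remodeler genes and of 0.142 across the 42 with at least 100 counts on average. It was largest for Smarca2, at 1.07, which had the fewest reads of the tested genes. The calls depend on how the error is set, since the input stood alone. With a fixed dispersion of 0.1, only Actl6a, Dpf2 and Smarca1 of the 10 called genes were called by edgeR's likelihood ratio test, and 0 were enriched. At an unadjusted p under 0.05 that fit gave 3 higher and 6 lower. Of the 34 genes past the test at any fold, 31 were not past it with the fixed dispersion, 12 were not past it under at least 1 other alternative, and 7 of the 10 not past it were past it under at least 1 other. The losses and gains other than those with the fixed dispersion are given beside each gene. Scaling by TPM (a scaling that also divides by exonic length) raised all log2 values by a median of 0.151 and left 3 enriched and 4 depleted, 14 higher and 21 lower. DESeq2 gave 3 enriched and 5 depleted, 8 higher and 20 lower. With a trend with GC content removed, 10 were higher and 22 lower, and with one with exon density removed, 11 and 21.

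**Figure D2:**
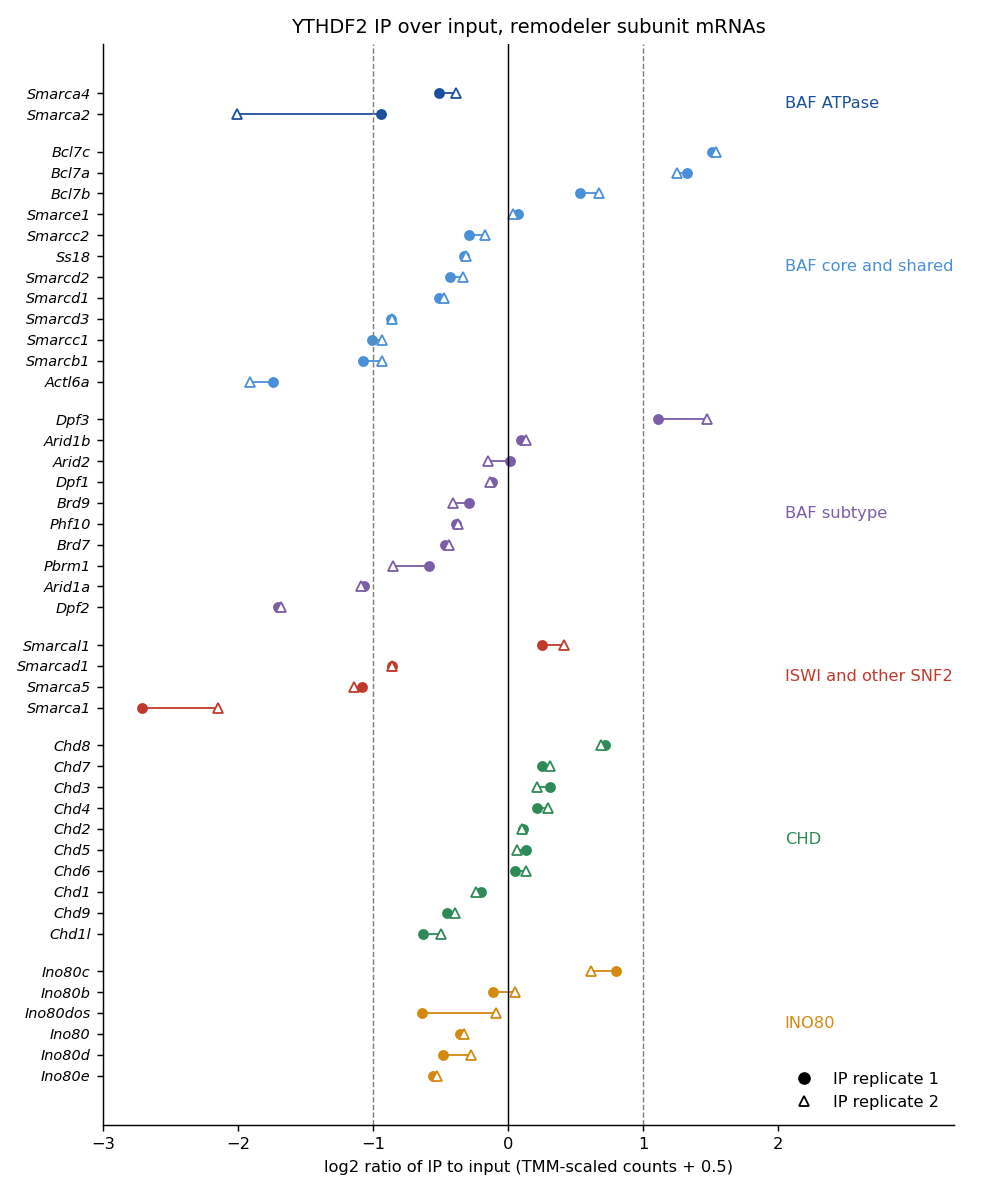
Log2 ratio of each IP library to the input for the 44 tested remodeler genes, by role (filled circle, IP replicate 1; open triangle, IP replicate 2; dashed lines, 2-fold). The 3 Bcl7 genes, Dpf3, Chd8 and Ino80c lie to the right, and Smarca1, Actl6a and Dpf2 lie far to the left in both IP libraries, with Smarca2 so in IP replicate 2 only.

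Among the 24 tested BAF genes, 16 were lower and 4 were higher in the IP, with 3 enriched, 5 depleted and a median log2 fold change of −0.38. That is 66.7% lower, 16.7% higher, 12.5% enriched and 20.8% depleted, beside 28.9%, 28.4%, 15.0% and 13.0% of all tested genes. Over all genes with at least 100 counts on average, 39.0% were lower and 37.4% were higher. By DESeq2, 13 of the 24 were lower and 4 higher, with 3 enriched and 3 depleted. The other 20 genes had 9 lower (45%), 5 higher (25%), 0 enriched, 2 depleted (10%) and a median of −0.12. The difference between these groups was not tested.

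Both BAF ATPases were lower in the IP. Smarca4 encodes BRG1, the ATPase used by ESCs, and had 8017 input counts beside 5741 and 6346 in IP. Both IP libraries lay below the input, and the log2 fold change of −0.45 ± 0.062 (SE) passed the test by edgeR (adjusted p = 9.4e-08). Smarca2 encodes the alternative ATPase BRM and was scarce, with 91 input counts beside 48 and 23 in IP. Its log2 ratios of −0.95 and −2.01 lay on the same side of 0 but far apart, past 2-fold in IP replicate 2 only, and the fitted value was −1.39 ± 0.462 (adjusted p = 0.0098). Smarca2 was not called by DESeq2 (adjusted p = 0.182), with adjusted p-values from 0.0080 to 0.182 over the alternatives.

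Of the core subunits, those that form the scaffold of the complex were lower. Smarcb1 encodes BAF47, a core subunit that contacts the nucleosome, and lies on chromosome 10 from 75896769 to 75921614 (minus strand, mm10). It had 4975 input counts beside 2411 and 2692 in IP. The log2 ratios of −1.07 and −0.94 straddle the 2-fold limit, and the fitted value of −1.004 ± 0.073 fell just inside it (2.01-fold lower, adjusted p = 1.2e-14). Its call was lost in 7 of the 11 tested alternatives, though the direction held in each. Smarcc1 encodes BAF155, the scaffold paralog that predominates in ESCs, and had 8127 input counts beside 4129 and 4392 in IP. At −0.97 ± 0.062 it fell just outside the limit, so the 2 genes are alike in size of difference in spite of their calls. Smarcc2, its paralog BAF170, had 2320 input counts beside 1940 and 2130 in IP. That small reduction, of −0.23 ± 0.087, passed the test (adjusted p = 0.024) but turned to 0.033 once a trend with exon density was removed. It was also not past the test by DESeq2 (0.209), with scaling to the library total (0.204) or TPM (0.472), or without the filter on low counts (0.057, all adjusted p).

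All 3 Smarcd genes, which encode the BAF60 subunits that bridge the complex to transcription factors, were lower. Smarcd1 and Smarcd2 are about equally abundant in the input, at 70.6 and 75.2 TPM, and had log2 fold changes of −0.49 ± 0.073 and −0.38 ± 0.073. Smarcd3, the form known from heart and muscle, was found at 614 input counts beside 343 and 350 in IP. Its log2 fold change of −0.87 ± 0.161 (adjusted p = 1.5e-05) became −1.59 after a trend with GC content was removed, which is past the 2-fold limit. Exons of Smarcd3 share 23.1% of their length with Chpf2 on the other strand, and reads over both genes were left out of the counts.

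Smarce1, which encodes the DNA-binding subunit BAF57, did not pass the test. It had 5073 input counts beside 5445 and 5393 in IP, with a log2 fold change of 0.06 ± 0.064 (adjusted p = 0.48). It passed as higher with TPM scaling (0.21, adjusted p = 0.0046) and with scaling to the library total (0.15, adjusted p = 0.046), with adjusted p-values up to 0.96 over the alternatives. Ss18, whose product docks on the ATPase module and is fused to SSX proteins in synovial sarcoma, was modestly lower, at −0.32 ± 0.060 (adjusted p = 1.6e-05).

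Actl6a had the lowest fitted value of any BAF gene. It encodes BAF53A, an actin-related protein shared by BAF, INO80 and TIP60 complexes that is used in dividing cells and replaced by BAF53B in neurons. It lies on chromosome 3 from 32708546 to 32726973 (plus strand). It had 8912 input counts beside 2718 and 2452 in IP, giving log2 ratios of −1.74 and −1.91. Both IP libraries were well below the input, and the fitted value was −1.82 ± 0.067, a 3.54-fold reduction (adjusted p = 5.0e-23). The call held under each of the 11 tested alternatives. With an exon density trend removed, Actl6a stood at −1.46, above Dpf2 at −1.63. Per length, Actl6a was the most abundant remodeler mRNA in the input, at 216 TPM. In the IP libraries it stood at 71.7 and 63.4 TPM. Actl6b, the neuronal BAF53B gene, had 0 counts in all 3 libraries. The floor of 3 counts per library corresponds to 0.0811 CPM in the input, so no ratio can be given.

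The Bcl7 family stood on the other side. All 3 of its genes were higher in the IP, and 2 of them were enriched. BCL7A, BCL7B and BCL7C are small accessory subunits common to the BAF complexes, and BCL7A was first found at a translocation in lymphoma. Bcl7c lies on chromosome 7 from 127661454 to 127708766 (minus strand) and had 1193 input counts beside 3477 and 3602 in IP. The log2 ratios were 1.51 and 1.54, and the fitted value was 1.53 ± 0.085, or 2.89-fold higher (adjusted p = 2.9e-18). Bcl7a lies on chromosome 5 from 123344448 to 123374083 (plus strand) and had 1136 input counts beside 2908 and 2796 in IP. Its log2 ratios were 1.33 and 1.25, with a fitted value of 1.29 ± 0.092, or 2.44-fold higher (adjusted p = 3.8e-15). For both genes the IP libraries lay close together and far above the input. Bcl7b, on chromosome 5 from 135168372 to 135181852 (plus strand), had 1408 input counts beside 2081 and 2323 in IP. The rise of 0.60 ± 0.096 was smaller but passed the test (adjusted p = 9.9e-07). With a GC trend removed it was 0.28 (adjusted p = 0.0097). Bcl7c exceeded Bcl7b by 0.98 and 0.87 on the log2 ratio scale in IP replicates 1 and 2. The 3 genes were higher under all tested alternatives but the fixed dispersion of 0.1, where the adjusted p was 0.120 for Bcl7a, 0.063 for Bcl7c and 0.51 for Bcl7b. No other BAF subunit family had all its members higher.

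**Figure D3:**
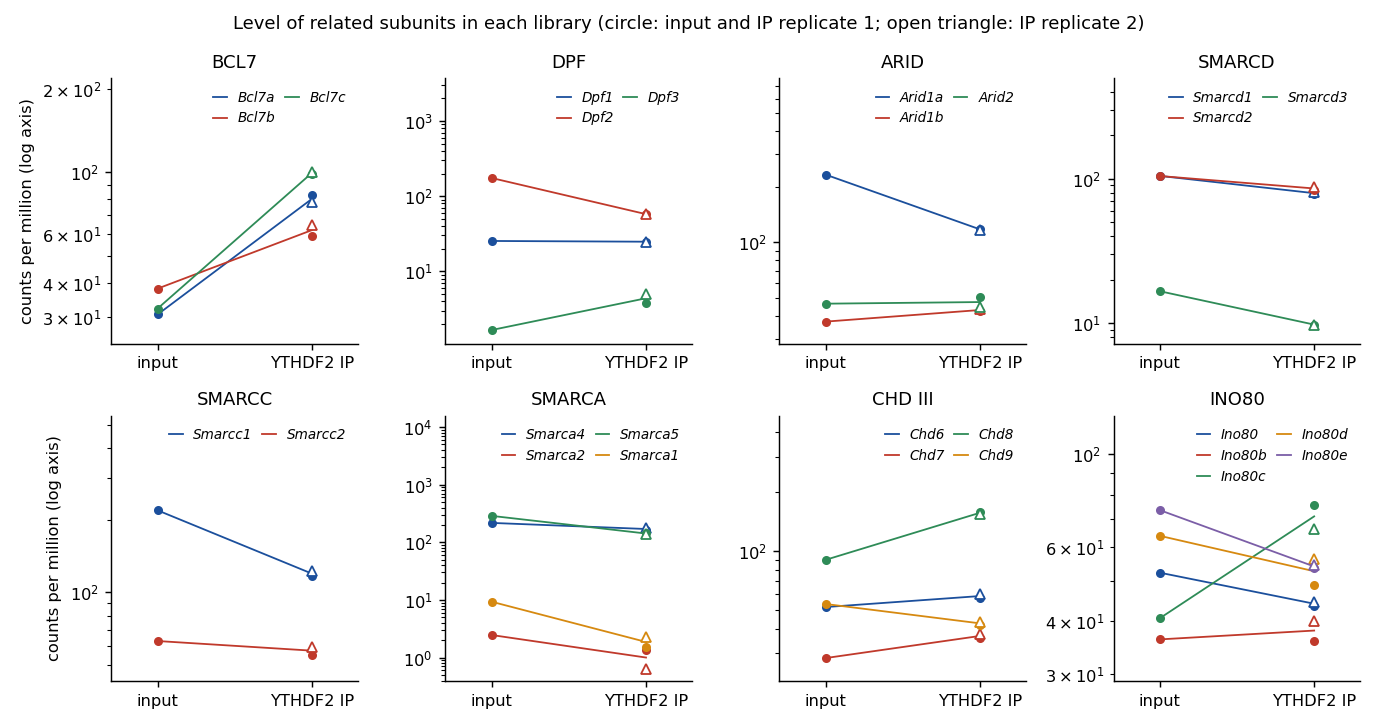
Level in CPM (log axis) of paralogs and complex partners in the input and in the YTHDF2 IP libraries, with circles for the input and IP replicate 1, open triangles for IP replicate 2 and lines to the mean of the IP libraries. Bcl7a, Bcl7b and Bcl7c lie at 30.7 to 38.1 CPM in the input and spread to 59.0 to 100 CPM in the IP libraries, while Dpf2 falls and Dpf3 rises.

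Subunits that define the canonical form of BAF diverged within families. ARID1A and ARID1B are large, mutually exclusive subunits, and ARID1A is the BAF subunit most often mutated in cancer. Arid1a lies on chromosome 4 from 133679008 to 133756769 (minus strand) and had 8585 input counts beside 4171 and 4168 in IP. The log2 ratios were −1.07 and −1.09, so that both IP libraries were below the input by nearly the same amount, and the fitted value was −1.08 ± 0.061, or 2.12-fold lower (adjusted p = 4.4e-18). The call was lost with scaling to the library total (−0.99), with TPM scaling (−0.93) and with the fixed dispersion (adjusted p = 0.158). Arid1b had 1371 input counts beside 1491 and 1558 in IP, and its log2 fold change of 0.11 ± 0.102 did not pass the test (adjusted p = 0.36), except with TPM scaling (0.26, adjusted p = 0.026, the lowest over the alternatives). The log2 ratio of Arid1a was below that of Arid1b by −1.16 and −1.23 in the IP libraries.

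The DPF genes encode alternative double PHD finger subunits (BAF45 proteins) that read acetylated histone tails. Dpf2, the widely expressed form, lies on chromosome 19 from 5896516 to 5912871 (minus strand) and had 6453 input counts beside 2019 and 2079 in IP. At log2 ratios of −1.71 and −1.68 the IP libraries were alike and well below the input. The fitted value of −1.69 ± 0.069 corresponds to a 3.24-fold reduction (adjusted p = 2.7e-22), and the call held under all 11 tested alternatives. Dpf1, a form known from neurons, had 936 input counts beside 877 and 883 in IP (log2 fold change −0.13 ± 0.121, adjusted p = 0.38). With a GC trend removed Dpf1 was lower, at −0.59 (adjusted p = 1.2e-04, the lowest over the alternatives). Dpf3, known from heart and muscle, lies on chromosome 12 from 83213751 to 83487736 (minus strand) and was scarce, with 61 input counts beside 135 and 176 in IP. Both IP libraries exceeded the input, with log2 ratios of 1.11 and 1.47 and a fitted value of 1.31 ± 0.343, or 2.47-fold higher (adjusted p = 0.0012). The pseudogene Gm18872 overlaps 12.4% of the exonic length of Dpf3 on the same strand. The 3 paralogs thus had 1 enriched, 1 depleted and 1 not past the test.

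Subunits of PBAF, the form with ARID2 and the polybromo protein, showed smaller differences, all on one side where they passed. Pbrm1, which encodes polybromo-1 and is often mutated in kidney cancer, had 1734 input counts beside 1180 and 995 in IP (−0.71 ± 0.110, adjusted p = 7.2e-07). Brd7, a bromodomain subunit, was lower by a log2 fold change of −0.45 ± 0.068, and Phf10, a PHD finger subunit, by −0.38 ± 0.094. Arid2, which defines PBAF, had ratios of 0.014 and −0.15 and did not pass (adjusted p = 0.59). Thus 3 of 4 PBAF genes were lower (75%, beside 28.9% of all tested genes). None passed the 2-fold limit, where 15.0% of all tested genes were enriched and 13.0% depleted. With a GC trend removed, only 1 of the 4 was lower, as Pbrm1 stood at −0.21 (adjusted p = 0.103) and Phf10 at 0.10. Brd9, the bromodomain subunit of non-canonical BAF, was also lower, at −0.35 ± 0.104 (adjusted p = 0.0043), but not by DESeq2 (adjusted p = 0.089) or with TPM scaling (adjusted p = 0.110).

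Outside BAF, both ISWI ATPases were depleted. Smarca5 encodes SNF2H, the main ISWI ATPase of ESCs, which spaces nucleosomes. It lies on chromosome 8 from 80699943 to 80739459 (minus strand) and had 10609 input counts beside 5107 and 4983 in IP. Both IP libraries lay below the input, with log2 ratios of −1.08 and −1.14, and the fitted value was −1.11 ± 0.059, or 2.16-fold lower (adjusted p = 7.7e-19). Its GC content of 41.5% is low, and with a GC trend removed the log2 fold change was −0.58. The 2-fold call was also lost with an exon density trend removed (−0.86), with TPM scaling (−0.96) and with the fixed dispersion (adjusted p = 0.144), in a range from 5.4e-70 to 0.144 over the alternatives. Smarca1 encodes the paralog SNF2L and lies on the X chromosome from 47809370 to 47892613 (minus strand). It had the lowest fitted value of the set, with 344 input counts beside 53 and 80 in IP. The log2 ratios of −2.72 and −2.15 were both far below 0, and the fitted value was −2.41 ± 0.278, or 5.31-fold lower (adjusted p = 1.6e-09). It ranked 609 from the bottom among the tested genes. The call held in all 11 tested alternatives. Smarca1 has the lowest GC content of the tested genes of the set, 39.4%, and with a GC trend removed it stood at −1.74.

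The 2 further SNF2-family ATPases went opposite ways. Smarcad1, which maintains heterochromatin and silent repeats, was lower by a log2 fold change of −0.86 ± 0.073 (adjusted p = 5.6e-13), with 4191 input counts beside 2360 and 2387 in IP. With a GC trend removed Smarcad1 stood at −0.34 (adjusted p = 1.9e-04). Smarcal1, an annealing helicase that remodels stalled replication forks, was higher by 0.33 ± 0.094 (adjusted p = 0.0026), with 1678 input counts beside 2034 and 2312 in IP.

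The CHD genes lay close to the input. Of 10 genes, 3 were higher, 3 were lower and 4 did not pass, and fitted values ran from −0.56 to 0.70, so that none reached the 2-fold limit by edgeR or DESeq2. At an unadjusted p under 0.05, edgeR gave the same 3 higher and 3 lower, and DESeq2 gave 2 and 2. Higher and lower genes were thus 30% each, near the 28.4% and 28.9% of all tested genes. All 10 had at least 100 counts on average, and of all genes of that depth 37.4% were higher and 39.0% were lower. Over all tested genes, 15.0% were enriched and 13.0% depleted. The median was 0.10. Chd8, an ATPase of subfamily III that represses Wnt targets and is linked to autism, had the highest value, with 3321 input counts beside 5568 and 5526 in IP. Both IP libraries were above the input by similar amounts, and the log2 fold change was 0.70 ± 0.068 (adjusted p = 1.8e-11). In the same subfamily, Chd7, the gene of CHARGE syndrome, was higher by 0.28 ± 0.111 (adjusted p = 0.031), but not by DESeq2 (adjusted p = 0.162) or with a GC trend removed (0.13, adjusted p = 0.30). Chd6 did not pass at 0.09 ± 0.090, but passed as higher with TPM scaling (0.24, adjusted p = 0.019) and with the GC trend removed (0.23, adjusted p = 0.025). Chd9 was lower by −0.42 ± 0.095 (adjusted p = 2.1e-04), although it turned to 0.016 with a GC trend removed. Chd8 exceeded Chd9 by 1.17 and 1.08 on the log2 ratio scale in the IP libraries.

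In subfamily II, Chd4 encodes the ATPase of the NuRD corepressor and had the most counts of any remodeler gene, with 15081 in the input beside 17837 and 19154 in IP. The difference was small, at 0.25 ± 0.054, and passed the test (adjusted p = 9.2e-05), but no gene of this subfamily was higher once a GC trend was removed. Chd3, its paralog, had nearly the same value (0.26 ± 0.145) with fewer reads and did not pass (adjusted p = 0.12). It passed as higher with scaling to the library total (0.36), with TPM scaling (0.42) and with an exon density trend removed (0.53). Chd5, a neural gene, had 145 input counts beside 162 and 157 in IP, and no difference was detectable (adjusted p = 0.79). Both Chd3 and Chd5 turned negative with the GC trend removed, to −0.13 and −0.36. Chd1, which binds methylated histone H3 and keeps ESC chromatin open, was lower by −0.22 ± 0.073 (adjusted p = 0.0093), and among genes that passed the test it was the one that passed in the other direction under a tested alternative. With the GC trend removed it was higher by 0.21 (adjusted p = 0.010, in a range from 0.0088 to 0.83 over the alternatives). The test was not passed by DESeq2, with scaling to the library total or TPM, or with an exon density trend removed (−0.036). Chd2, its paralog, did not pass (0.10 ± 0.075, adjusted p = 0.25), but passed as higher with scaling to the library total (0.20), with TPM scaling (0.26), with a GC trend removed (0.18) and with an exon density trend removed (0.26). The Chaserr noncoding RNA overlaps 634 bases of Chd2 exons on the same strand. Chd1l, an ATPase that responds to poly(ADP-ribose) at DNA damage, was the lowest of the group, at −0.56 ± 0.087 (adjusted p = 7.2e-07). It also has the highest exon density of the tested genes of the set, 7.14 exons per kilobase, and with that trend removed it was at −0.13 and did not pass (adjusted p = 0.20).

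Among the 6 tested INO80 genes, 1 was higher (16.7%) and 3 were lower (50%), beside 28.4% and 28.9% of all tested genes. None passed the 2-fold limit by edgeR or DESeq2, where 15.0% of all tested genes were enriched and 13.0% depleted by edgeR. By DESeq2 at an adjusted p under 0.05, 1 was higher and 2 were lower. At an unadjusted p under 0.05, 1 was higher and 3 were lower by both tools. Ino80, the ATPase, had 1931 input counts beside 1537 and 1596 in IP (−0.34 ± 0.095, adjusted p = 0.0021). It did not pass by DESeq2 (adjusted p = 0.058), with TPM scaling (adjusted p = 0.088) or with an exon density trend removed (−0.12, adjusted p = 0.29). Ino80c, which encodes a small subunit of the core, rose instead, with 1504 input counts beside 2671 and 2386 in IP. Both IP libraries were above the input, at log2 ratios of 0.80 and 0.62, and the fitted value was 0.71 ± 0.093 (adjusted p = 2.9e-08). Ino80d and Ino80e, accessory subunits, were lower by −0.38 ± 0.092 and −0.54 ± 0.084, and Ino80d did not pass with a GC trend removed (−0.14, adjusted p = 0.21). Of the exonic length of Ino80e, 35.5% is shared with Doc2a, where reads were left out. Ino80b had ratios of −0.11 and 0.054, on both sides of the input, and did not pass (adjusted p = 0.86). Its GC content of 63.6% is the highest of the set, and with a GC trend removed it was lower, at −0.89 (adjusted p = 5.3e-08, in a range up to 0.998 over the alternatives). Ino80dos is a noncoding RNA gene beside Ino80d on the opposite strand, whose exons share 248 bases with Ndufs1 on the other strand, and strand was not used in counting. It had 75 input counts beside 49 and 73 in IP (adjusted p = 0.51).

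The ratios of paralogs in input and IP are given per length, as TPM, with no test of their change. Arid1a was 18.6 times as abundant as Arid1b in the input and 8.29 and 7.93 times in the IP libraries. Smarcd1 to Smarcd2 stood at 0.939 for the input beside 0.887 and 0.853 for IP, and Chd4 to Chd3 at 33.4 beside 31.2 and 35.3, on both sides of the input. The ratio of Dpf2 to Dpf1 went from 8.13 (input) to 2.72 and 2.78 (IP), and that of Smarcc1 to Smarcc2 from 3.40 to 2.06 and 2.00. Arid1a, Dpf2 and Smarcc1, the more abundant of these pairs in the input, were thus the ones recovered less. The pair of ISWI ATPases went the other way, as Smarca5 was 34.1 times as abundant as Smarca1 in the input and 106 and 68.8 times after the IP. For Chd8 and Chd9 the ratio was also larger, going from 5.91 to 13.3 and 12.5. For Smarca4 and Smarca2 the ratio was 87.0 for the input beside 118 and 272 for IP, where the few Smarca2 reads leave it poorly fixed. Bcl7b was the most abundant Bcl7 mRNA per length in every library, at 48.6 TPM in the input, beside 17.2 for Bcl7a and 10.5 for Bcl7c. The TPM values use all annotated exons of a gene, which for Arid1b and Chd9 add up to 27784 and 32704 bases and lower their level. Ratios between libraries are not affected by that length.

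**Figure D4:**
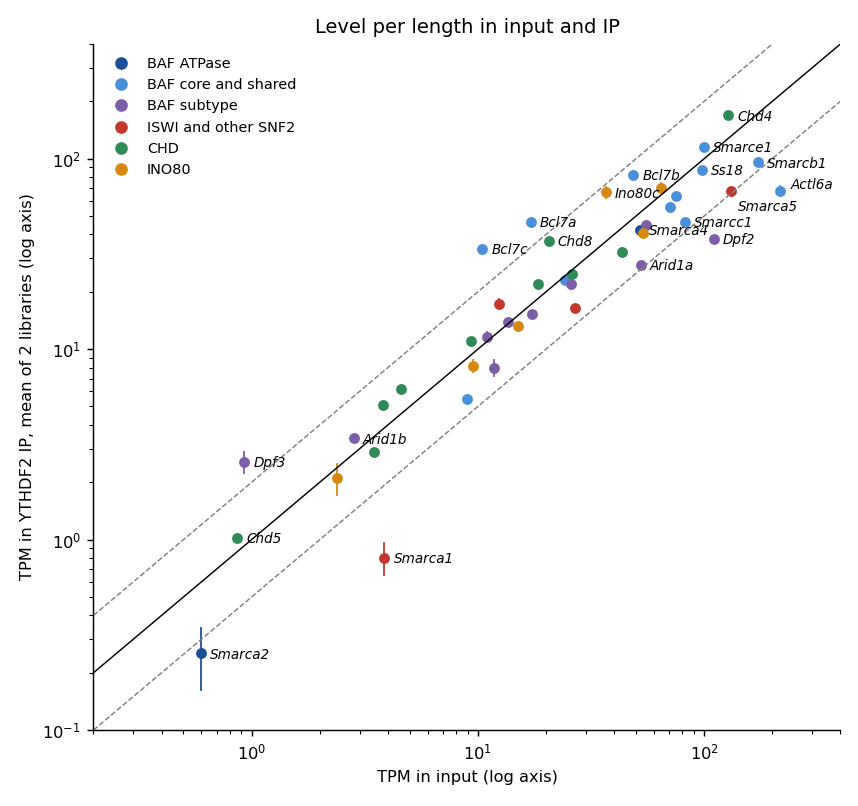
Level per length (TPM, log axes) of the 44 tested remodeler genes in the input and in the YTHDF2 IP (mean of 2 libraries, vertical line between the replicates), with a solid line at equality and dashed lines at 2-fold. Bcl7a, Bcl7c and Dpf3 lie above the upper dashed line, and Actl6a, Dpf2, Smarca1 and Smarca2 lie below the lower one.

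Features of the transcripts that the rule does not read were set beside the fold changes, as descriptions across genes, which are not independent replicates. Remodeler genes are built of many exons, with a median of 3.68 exons per kilobase of exonic length, where all tested genes had 2.47. Exon density went with a lower value both across all genes (Spearman rho −0.18, n = 19554) and across the remodeler genes (rho −0.36, n = 44). Bcl7c and Bcl7a had 1.07 and 1.58 exons per kilobase, while Actl6a had 6.31. Other genes went against this trend, such as Ino80d and Chd9, which were lower with 1.12 and 1.41, and Chd4, which was higher with 5.58. GC content went with a higher value across all genes (rho 0.31) and less so across the remodeler genes (rho 0.13), whose median of 51.1% was near the 49.7% of all. After a GC trend was removed the remodeler median was −0.24, and after an exon density trend it was −0.20. The level in the input went with a lower value, both across all genes (rho −0.24, n = 19601) and across the remodeler genes (rho −0.33), whose median log2 TPM of 4.49 was above the 2.55 of all, although the input enters both measures. The part of these features in the differences was not tested further.

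**Figure D5:**
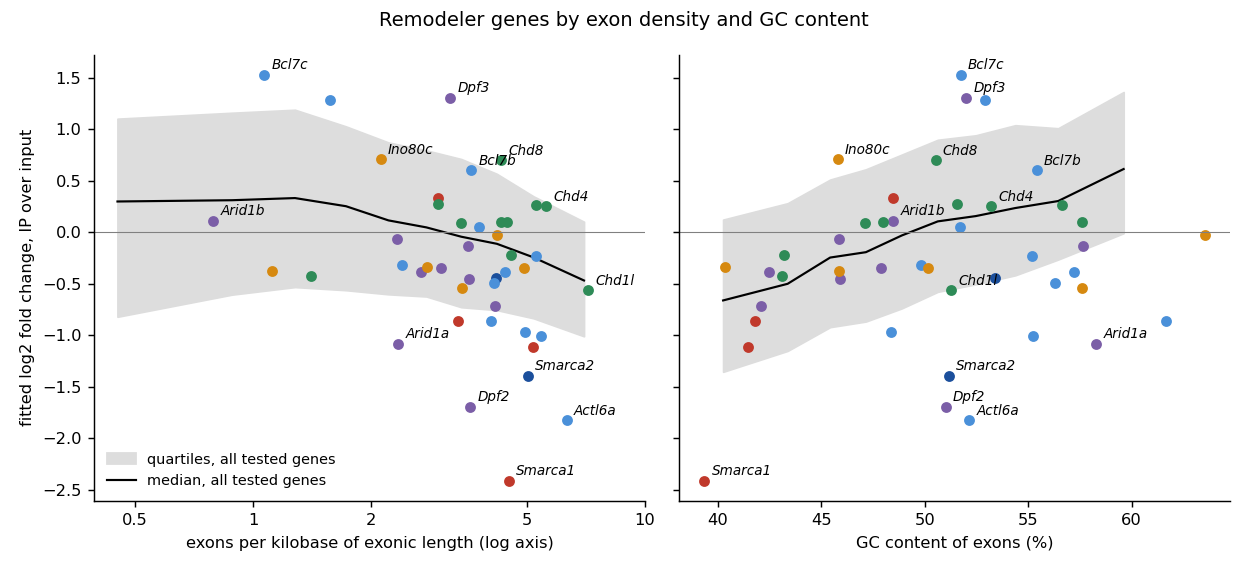
Fitted log2 fold change of IP over input against exons per kilobase of exonic length (left, log axis) and exonic GC content (right), for the 44 remodeler genes (points, coloured by role as in the plot of levels) and for all tested genes in 10 bins (line, median; grey, quartiles). Bcl7a, Bcl7c and Dpf3 lie above the grey band in both panels, and Smarca1, Actl6a and Dpf2 are among the genes that lie below it in both.

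The length of the 3′ untranslated region (UTR) had a rho of 0.36 with the value across 43 remodeler mRNAs and of 0.0042 across 15015 mRNAs of all tested genes, and the difference between these was not tested. Bcl7c has a coding sequence of 726 bases and a 3′ UTR of 5395 bases, which makes up 84.8% of its mRNA. Bcl7a has 633 and 2994 bases. Bcl7b, with the smaller rise, has 609 and 922 bases. Actl6a has 1290 and 369 bases. The pattern is not uniform, since Ino80d has a 3′ UTR of 10182 bases and a value of −0.38, and Dpf2 has one of 2039 bases and was depleted.

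The letters GGACT, a common form of the sequence at which m6A is placed (on its A), were searched on the transcript strand of the RefSeq mRNA with the longest coding sequence of each gene. GGACT was present in 41 of 43 remodeler mRNAs (95.3%) and in 91.5% of the 15015 mRNAs of all tested genes. Smarca5 and Ino80b lacked it. Within 400 bases of the stop codon, where m6A is often found, it was present in 23 of 43 (53.5%), beside 58.7% of all. This held for 1 of the 3 enriched genes and for 2 of the 7 depleted ones. The match nearest to the stop codon is printed for genes that were higher (Bcl7a, Bcl7b, Bcl7c and Dpf3) and for 3 that were depleted (Dpf2, Arid1a and Smarcb1), to show that these 5 letters occur on both sides. Sequences are 25 bases, 5′ to 3′ along the mRNA, from the RefSeq genome GRCm38.p6 (mm10), with GGACT in capitals. A match describes letters and does not show that a base was methylated or bound.
Bcl7a: gacacttgacGGACTctgccgtgaa
Bcl7b: aggaagaggaGGACTctggtgctcc
Bcl7c: acgagcctatGGACTctgggcctgc
Dpf3: gaaccggccaGGACTcagctaccac
Dpf2: ttgatgatgaGGACTatgaagaaga
Arid1a: tgtcctggacGGACTcctacactgg
Smarcb1: gccatcctgaGGACTggggtaggag

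The Bcl7a match lies at chr5:123371263-123371287 on the plus strand, 186 bases past the stop codon in the 3′ UTR. That of Bcl7b lies at chr5:135180845-135180869 on the plus strand, in the coding sequence 73 bases before the end of the stop codon. The Bcl7c match, at chr7:127666273-127666297 on the minus strand, is 564 bases into the 3′ UTR, and this mRNA holds 6 matches there. In Dpf3 the nearest match is 501 bases before the end of the stop codon, at chr12:83294456-83294480 on the minus strand. Dpf2 has its nearest match 706 bases before, at chr19:5904488-5904512 on the minus strand. In Arid1a it is 597 bases before, at chr4:133680916-133680940 on the minus strand. Smarcb1, which was depleted, has its match 100 bases into the 3′ UTR, at chr10:75896937-75896961 on the minus strand, which is nearer to the stop codon than in Bcl7a or Bcl7c.

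Genes for other parts of the remodeling machinery were also mostly lower in the IP, with single genes far on either side. Of 58 such genes, all tested, 3 were enriched and 11 depleted, 14 were higher and 37 lower, and the median was −0.32. That is 5.17% enriched and 19.0% depleted, 24.1% higher and 63.8% lower, beside 15.0%, 13.0%, 28.4% and 28.9% of all tested genes. Over all genes with at least 100 counts on average, 37.4% were higher and 39.0% were lower. All 8 further SNF2-family ATPases were lower and 4 of them were depleted, the lowest being Hells, an ATPase needed for DNA methylation, at −2.26 ± 0.063. In NuRD, the complex of Chd4, 1 of 12 genes was enriched and 4 were depleted. Mbd3, its methyl-CpG-binding-domain subunit, was enriched at 1.69 ± 0.061, with 4613 input counts beside 14822 and 15735 in IP. Hdac1, its deacetylase, was depleted at −2.28 ± 0.065, with 9705 input counts beside 1974 and 2133 in IP. Chrac1, a small histone-fold partner of the ISWI ATPase SNF2H, had the highest value, with 555 input counts beside 5124 and 5058 in IP. Its log2 fold change was 3.16 ± 0.090 (adjusted p = 7.8e-27), against −1.11 for Smarca5. Yeats4, a histone reader of SRCAP and TIP60, was also enriched, at 2.41 ± 0.066, whereas Morf4l1, a chromodomain subunit of TIP60, was depleted, at −1.95 ± 0.058. These 6 genes are the 3 lowest and 3 highest of the called genes in that list. By complex, subunits of 1 machine were thus found on both sides of the input in NuRD, with SNF2H and its partner, and in SRCAP and TIP60.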

How the data were processed

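RNA immunoprecipitation libraries of Dox-treated E14 ESCs (1 input, 2 YTHDF2 IP) were grouped by their titles. The submitters' processing notes name fastp 0.19.4, HISAT2 2.2.1, DESeq2 1.40.2 and mm10. The authors deposited unnormalised counts for each gene. The header of the table shows that featureCounts 2.0.3 was run over RefSeq exons in paired mode without joint counting of mates. Each mate was thus counted singly, and strand was not used although the labels describe dUTP libraries. Reads with several hits or over more than 1 gene were left out by default. The labels describe Trizol RNA as the material of the IP, and the methods a cleared lysate.

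In R 4.3.3, edgeR 4.0.16 was run after filterByExpr, with TMM scaling (factors 0.957, 1.02 and 1.02 for input, IP 1 and IP 2) and the robust quasi-likelihood test. It left 1 residual degree of freedom, from the IP pair. The dispersion shared by genes was 0.0054, that is, a variation of 7.33% between the IP libraries. Ratios of single libraries used counts plus 0.5. Exons, GC content and motifs came from the GRCm38.p6 RefSeq annotation, and TPM from the exonic length in the table. The table held 0 columns of other samples. The fit was also run on counts simulated at the shared dispersion for every library, which cannot show the effect of the unmeasured spread between inputs. All genes of the set are named, with the 3 lowest and 3 highest called genes of the related list at 10 CPM or more. Members and lists were chosen with earlier results of these data known. Alternatives were other scalings (including DESeq2 1.42.0), filters, halved counts, a fixed dispersion, GC and exon density trends, and leaving out each IP library.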

Additional observations from a re-analysis of the deposited data

How the results depend on the processing

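Over 11 tested alternatives, 446 of 482 values of single remodeler genes kept direction and side of the 2-fold call, 19 lost a call, 1 gained one and 16 changed sign, in 12 genes, none of them among the 10 called. With GC trend removed, sign changes were Smarce1 (−0.10), Arid2 (0.17), Phf10 (0.10), Chd1 (0.21), Chd3 (−0.13), Chd5 (−0.36), Chd9 (0.016) and Ino80dos (0.27). With exon density trend removed they were Smarcc2 (0.033), Arid1b (−0.18) and Ino80b (0.11). With scaling to the library total they were Arid2 (0.029) and Ino80b (0.070), and with TPM scaling Dpf1 (0.023), Arid2 (0.085) and Ino80b (0.13). Leaving out 1 IP library at a time, Ino80b ranged from −0.10 to 0.054 and Arid2 from −0.15 to 0.019.

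With the dispersion fixed at 0.1 there were 1577 genes enriched and 1531 depleted in all, 0 and 3 remodeler genes, and 6 depleted related genes. TPM scaling gave 4 depleted remodeler genes, and 5 enriched and 6 depleted related genes. The remodeler median was −0.24 with library total scaling, −0.19 with TPM scaling, −0.24 without the GC trend and −0.20 without the exon density trend. Leaving out 1 IP library at a time, it ranged from −0.34 to −0.29, with 6 to 7 depleted remodeler genes past 2-fold and no test. Depleted related genes past 2-fold then numbered 9 to 11, and without IP replicate 1 Smarcb1 was at −0.94. Without IP replicate 2, Smarca2 left the remodeler count at −0.945 and Smarcc1 entered it at −1.0007. The cause of these shifts was not tested.

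No paired analysis was possible because no IP replicate had an input of its own. With 1 input, its own spread was not measured and every ratio shares it. Mates counted singly make counting noise larger than the counts imply. Smarca2, with under 100 counts in each library, and Dpf3, with 61 in the input, are limited by depth.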
